A study of Mus musculus with 4 samples.

Results

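Of the 374 probe sets in the authors' deposited comparison table, 60 carried a name that begins with "Transcribed locus" or "EST", against 45037 non-control probe sets on each array. One of the 60, probe set 1428304_at, is named "Establishment of cohesion 1 homolog 2", the cohesin acetyltransferase gene Esco2, and was taken only because its name begins with the same letters. It is described on its own at the end, which leaves 59 probe sets for loci that the table gives no gene of their own, 45 named "Transcribed locus" and 14 named "EST" or "ESTs". These 59 probe sets are called loci below, and probe sets of the same EST are counted separately. Per the file headers, the table lists probe sets at 2-fold and up between the same populations, so the differences of these loci between the populations are a description of how they were chosen and carry no test here.

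The arrays held RNA of cells sorted from testes of 2-week-old Sox2GFP mice (129SvJae/BL6), in which a green fluorescent protein reports Sox2. All cells were positive for the reporter and were divided by their surface ckit (the stem cell factor receptor) into Sox2GFP+ckit+ cells (2 arrays) and Sox2GFP+ckit- cells (2 arrays), called ckit+ and ckit- cells here. Each array came from a pool of 20 testes, with 20000 to 90000 cells, and 5 ng of total RNA was amplified. According to the labels, ckit- cells can regenerate damaged testis tubules and ckit+ cells cannot, and the 2 arrays of a population are biological replicates.

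An expressed sequence tag (EST) is a single sequencing read of a cloned cDNA, and a transcribed locus is a cluster of such reads that no known gene has been assigned to. Such a record points to RNA made from a place in the genome but does not by itself establish it. Nor does it say whether that RNA belongs to an unrecognised gene, to a long noncoding RNA or to an unannotated end of a known gene. The testis is known for transcribing an unusually wide part of the genome. In postnatal spermatogonia, ckit marks cells that have begun to differentiate, while receptors such as Ret and Gfra1 mark undifferentiated cells.

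The values were log2 expression values, and array medians lay between 6.39 and 6.42. Kit, whose protein defined the sort, was higher in ckit+ cells by both probe sets that the table names for it. Probe set 1452514_a_at had 9.68 and 9.62 in ckit+ arrays against 6.87 and 6.78 in ckit- arrays. For 1415900_a_at the values were 7.91 and 8.27 in ckit+ arrays against 6.22 and 5.44 in ckit- arrays. Probe sets named for Ret, Gfra1 and Etv5, 6 in all, had lower values in ckit+ than in ckit- cells, and those of Stra8 and Dnmt3b had higher values. The table was selected on this same contrast, so a marker with no difference between the populations would not be listed. These directions, Kit's among them, are therefore no independent check of the sort. Plvap, the only one of the endothelial markers that the table names, was lower in ckit+ cells too, with 5.40 and 5.39 in ckit+ arrays against 6.77 and 6.91 in ckit- arrays, and its part in the differences of the loci was not tested. Sox2 itself, the spermatogonial markers Id4, Lin28a, Nanos2, Sall4, Sohlh1 and Sohlh2, and the germ cell markers Ddx4, Dazl and Dppa3 are not named by the table. The same holds for the markers of Sertoli, Leydig, peritubular myoid, blood and mast cells. None of these markers was analysed here. In sorted bulk samples, fewer cells of a type and less RNA per cell cannot be told apart.

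The 59 loci were divided between the populations. In ckit+ cells 22 of them had the higher values and in ckit- cells 37, which is 37.3% and 62.7%. Among the other 314 probe sets of the table, 155 had the higher values in ckit+ and 159 in ckit- cells, or 49.4% and 50.6%. Over all probe sets these shares were 49.5% and 50.5%. The median log2 difference, ckit+ minus ckit-, was 1.29 for the loci higher in ckit+ cells and -1.43 for those higher in ckit- cells. In the other probe sets of the table these medians were 1.25 and -1.33. Of the 14 loci named EST or ESTs, 1 favoured ckit+ and 13 favoured ckit- cells, while the 45 named transcribed locus divided into 21 for ckit+ and 24 for ckit- cells. The 2 kinds of name also differed in level, the mean over the 4 arrays, with medians of 5.80 and 6.61. The loci and the other listed probe sets also differed in level, with median levels of 6.53 and 7.40. Over all probe sets the sign varied with level. At levels from 5.5 to 5.75, 285 probe sets had log2 differences of -0.375 to -0.25 and 119 had differences of 0.25 to 0.375. At levels from 8.5 to 8.75 these numbers were 64 and 132. The splits were not compared at like level. None of these splits was tested, since the table had been selected on the same contrast.

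**Figure D1:**
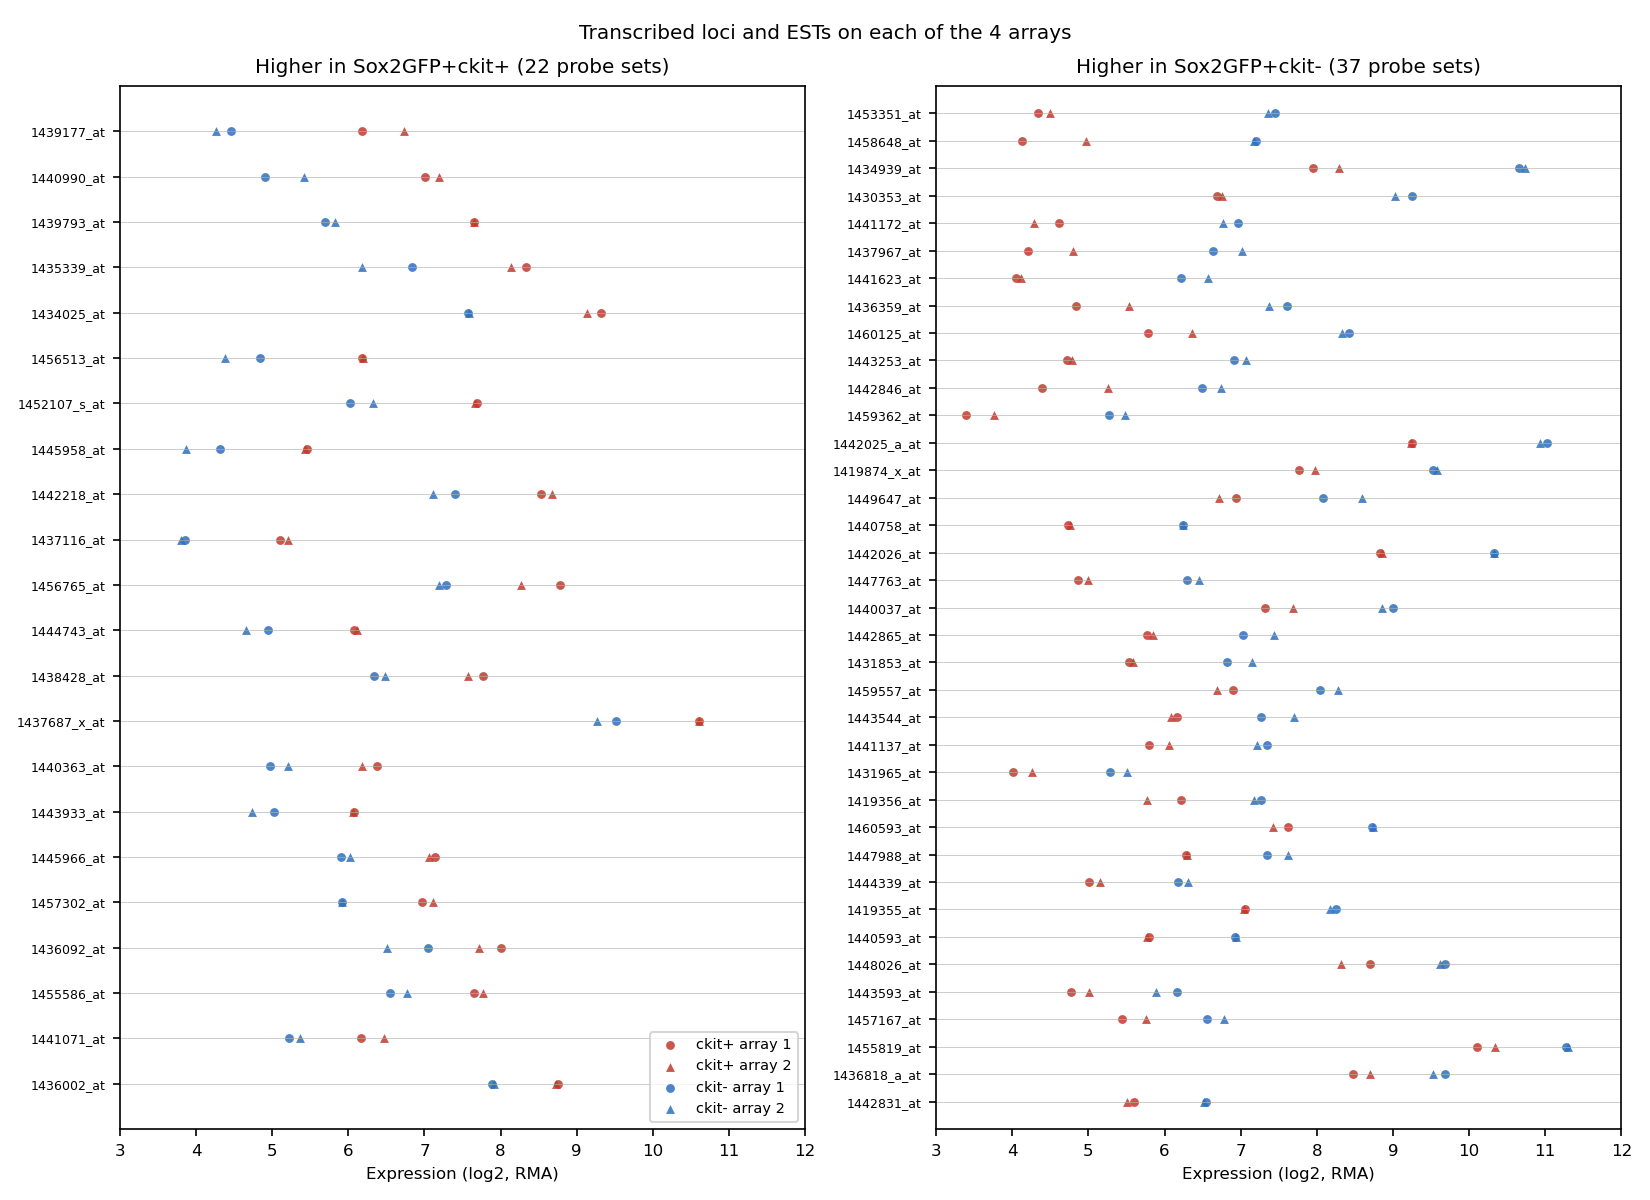
Expression (log2) of the 59 loci on the 4 arrays, 1 row per probe set, with ckit+ arrays in red and ckit- arrays in blue. The left panel holds the 22 loci higher in ckit+ cells and the right panel the 37 higher in ckit- cells, each ordered by the difference, and in every row the red and the blue points are apart.

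In all 59 loci the ckit+ arrays lay apart from the ckit- arrays. Over all probe sets 48.6% were so separated, and 1.49% were at least 2-fold apart, as were 57 of the 59 loci and 278 of the other 314 listed probe sets. Limma, a linear model that pools the spread over all probe sets, called 22 of the 59 at an adjusted p under 0.05, 6 of them higher in ckit+ cells and the other 16 in ckit- cells. Over all probe sets its calls were 0.309% in either direction, 0.115% towards ckit+ and 0.193% towards ckit- cells. With any 1 of the 4 arrays left out, limma called 0 of the loci and 0 of all probe sets, while all 59 loci and 4513 to 6422 of the 45037 probe sets had an unadjusted p under 0.05. The table had been selected on this contrast, so nothing is read from the gap between these shares and the background.

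The locus with the widest gap between the populations was AK020409, whose probe set 1453351_at had 4.34 and 4.50 in ckit+ arrays against 7.45 and 7.36 in ckit- arrays. The log2 difference was -2.98 ± 0.16 (limma's standard error, n = 2 arrays per population, as for each ± beside a difference below). On ckit+ arrays it was brighter than 17.4% of all probe sets on average, and on ckit- arrays brighter than 66.5%. It thus lay below the lower quartile of the array in ckit+ cells. The highest lower quartile of the 4 arrays was 5.04, and where a population's mean lay under this value no fold is given, because signal and background may not be separable there. Each probe set has its own probes, so its brightness beside that of others describes array signal and not the amount of RNA.

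AU042950 (1458648_at) had 4.13 and 4.97 in ckit+ arrays against 7.21 and 7.17 in ckit- arrays, a log2 difference of -2.64 ± 0.28. Its ckit- arrays nearly coincided, while its ckit+ arrays were 0.84 apart and both dim. BB437522 (1434939_at) was the brightest of the loci that led this direction, with 7.95 and 8.29 in ckit+ arrays against 10.65 and 10.74 in ckit- arrays. In both populations it stood in the upper part of the array, above 74.8% of all probe sets in ckit+ and above 94.8% in ckit- cells. Its level was 5.95-fold lower in ckit+ cells (log2 difference -2.57 ± 0.18), so this gap did not rest on a signal near background. BB207363 (1430353_at) had 6.68 and 6.75 in ckit+ arrays against 9.25 and 9.02 in ckit- arrays and was 5.35-fold lower in ckit+ cells (-2.42 ± 0.17). It too lay above the array medians in both populations, with replicate arrays within 0.23 of each other.

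A further 4 loci completed the 8 with the widest differences towards ckit- cells. BM239026 (1441172_at) had 4.61 and 4.29 in ckit+ arrays against 6.97 and 6.76 in ckit- arrays. For BB023951 (1441623_at) the values were 4.05 and 4.12 in ckit+ arrays against 6.22 and 6.57 in ckit- arrays. Both were dim in ckit+ cells and near or above the array median in ckit- cells. AV365582 (1437967_at), which the table calls moderately similar to a predicted rat protein, had 4.21 and 4.80 in ckit+ arrays against 6.64 and 7.02 in ckit- arrays. BF471533 (1436359_at) had 4.84 and 5.53 in ckit+ arrays against 7.61 and 7.38 in ckit- arrays, 4.96-fold lower in ckit+ cells. Its ckit+ arrays were 0.70 apart, against 0.24 for its ckit- arrays. The log2 differences of these 4 loci ran from -2.41 to -2.31.

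The remaining 29 loci of this direction had log2 differences of -2.31 to -0.98. The next after the leading 8 was BB517076 (1460125_at), named as ESTs weakly similar to the tyrosine-protein kinase JAK3, which carries signals of cytokine receptors. It had 5.78 and 6.35 in ckit+ arrays against 8.42 and 8.32 in ckit- arrays, and was 4.95-fold lower in ckit+ cells (-2.31 ± 0.22). A weak similarity does not identify the gene, and the locus is not called Jak3 here. BI076661 (1443253_at), also named ESTs, was next with 4.72 and 4.78 in ckit+ arrays against 6.92 and 7.07 in ckit- arrays. These 10 loci were the only ones of this direction with a difference beyond 2 on the log2 scale, against 1 locus in the ckit+ direction.

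Among the 13 EST-named loci that were higher in ckit- cells, the replicate arrays of some lay very close. BB748724 (1440758_at) had 4.73 and 4.76 in ckit+ arrays against 6.25 and 6.25 in ckit- arrays. BB468566 (1440593_at) had 5.80 and 5.78 in ckit+ arrays against 6.93 and 6.94 in ckit- arrays. In both, the 2 pools of a population gave almost the same value, and the ckit+ arrays lay below the ckit- arrays. The brightest of these ESTs was AI592102 (1449647_at), with 6.93 and 6.72 in ckit+ arrays against 8.09 and 8.60 in ckit- arrays. Its ckit- arrays were 0.51 apart, the widest ckit- gap among the loci of this direction. Over the 14 EST-named loci the median of the mean level over 4 arrays was 5.80, against 6.61 over the 45 named transcribed locus.

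Towards ckit+ cells the leading locus was AV266436 (1439177_at), with 6.18 and 6.73 in ckit+ arrays against 4.46 and 4.26 in ckit- arrays. Its log2 difference was 2.10 ± 0.23, and its ckit- values lay below the lower quartile of each array. BB012037 (1440990_at) had 7.01 and 7.19 in ckit+ arrays against 4.90 and 5.42 in ckit- arrays and was 3.83-fold higher in ckit+ cells (1.94 ± 0.22). It stood above 61.4% of all probe sets in ckit+ cells and above 27.3% in ckit- cells.

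BM125285 (1439793_at), which the table calls strongly similar to gap junction membrane channel protein alpha 3, had 7.65 and 7.65 in ckit+ arrays against 5.70 and 5.82 in ckit- arrays. That protein is a connexin, a subunit of channels that join neighbouring cells, and its accession matched the mouse gene Gja3. The level was 3.70-fold higher in ckit+ cells (1.89 ± 0.16), with ckit+ arrays that differed by less than 0.01. BB091366 (1435339_at) had 8.34 and 8.14 in ckit+ arrays against 6.84 and 6.19 in ckit- arrays, 3.31-fold higher in ckit+ cells (1.73 ± 0.25). Its ckit- arrays were 0.65 apart, the widest ckit- gap of all 59 loci.

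BG069607 (1434025_at) had 9.31 and 9.13 in ckit+ arrays against 7.57 and 7.58 in ckit- arrays, 3.13-fold higher in ckit+ cells (1.64 ± 0.16). It was the brightest of the 8 loci that led this direction. AA223007 (1452107_s_at) had 7.69 and 7.66 in ckit+ arrays against 6.02 and 6.33 in ckit- arrays, 2.83-fold higher in ckit+ cells. The ending _s_at marks a probe set whose probes can match more than 1 transcript, so this value may combine several. BG073431 (1445958_at) had 5.46 and 5.43 in ckit+ arrays against 4.31 and 3.87 in ckit- arrays and was dim in ckit- cells. The 8 are completed by AV244034, described below with its similarity. The other 14 loci higher in ckit+ cells had log2 differences of 0.84 to 1.34.

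Of the 59 loci, 13 had a similarity in their name, of which 5 favoured ckit+ and 8 favoured ckit- cells. The other 46 had none. For 7 of these 13 the protein accession belonged to a mouse gene of the RefSeq table (GRCm38.p6), and for 2 of those 7 the EST accession itself is a synonym of the same gene there. That gene is Zbtb16, which encodes PLZF, a transcription factor of undifferentiated spermatogonia. These 2 probe sets thus do have a gene in that later annotation, and the name "Transcribed locus" no longer holds for them.

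The 3 loci similar to Zbtb16 were all lower in ckit+ cells. Probe set 1442025_a_at had 9.25 and 9.23 in ckit+ arrays against 11.03 and 10.93 in ckit- arrays, and 1442026_at, made from the same EST AI467657, had 8.82 and 8.85 in ckit+ arrays against 10.33 and 10.33 in ckit- arrays. Probe set 1419874_x_at of EST AA419994 had 7.77 and 7.97 in ckit+ arrays against 9.53 and 9.57 in ckit- arrays. The differences of the 3 loci were -1.73 ± 0.16, -1.49 ± 0.16 and -1.68 ± 0.17 on the log2 scale. The deposited table also lists 2 probe sets named "PLZF gene", 1439163_at and 1427638_at, with log2 differences of -1.73 ± 0.16 and -1.57 ± 0.19. All 5 were chosen on these arrays, so their common sign is not independent support. The ending _x_at marks probes that may also bind other sequences.

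The locus AV244034 (1456513_at) is named as ESTs weakly similar to transcription factor COE3, the protein name of Ebf3, an early B-cell factor. It was the only EST-named locus with higher values in ckit+ cells, at 6.18 and 6.20 in ckit+ arrays against 4.83 and 4.39 in ckit- arrays (1.58 ± 0.20). The 2 probe sets that the table names Ebf3 had log2 differences of 2.39 ± 0.21 and 1.56 ± 0.19, with means of 8.26 ± 0.15 and 8.26 ± 0.05 in ckit+ cells and 5.87 ± 0.32 and 6.69 ± 0.27 in ckit- cells (SD, n = 2 arrays). All 3 were lower in each ckit- array than in either ckit+ array.

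EST BB524597, called strongly similar to cytochrome b, had 2 probe sets. Cytochrome b is a subunit of respiratory complex III and is encoded in the mitochondrial genome. Probe set 1419356_at had 6.22 and 5.76 in ckit+ arrays against 7.27 and 7.17 in ckit- arrays, and 1419355_at had 7.06 and 7.05 in ckit+ arrays against 8.25 and 8.17 in ckit- arrays. The log2 differences of -1.23 ± 0.20 and -1.16 ± 0.16 were close to each other, but both probe sets read the same EST and are not independent of each other. On ckit+ arrays they were brighter than 42.9% and 60.8% of all probe sets on average, and on ckit- arrays brighter than 63.8% and 77.2%. Whether their probes read the mitochondrial transcript itself was not tested, so no difference in that transcript is stated here.

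**Figure D2:**
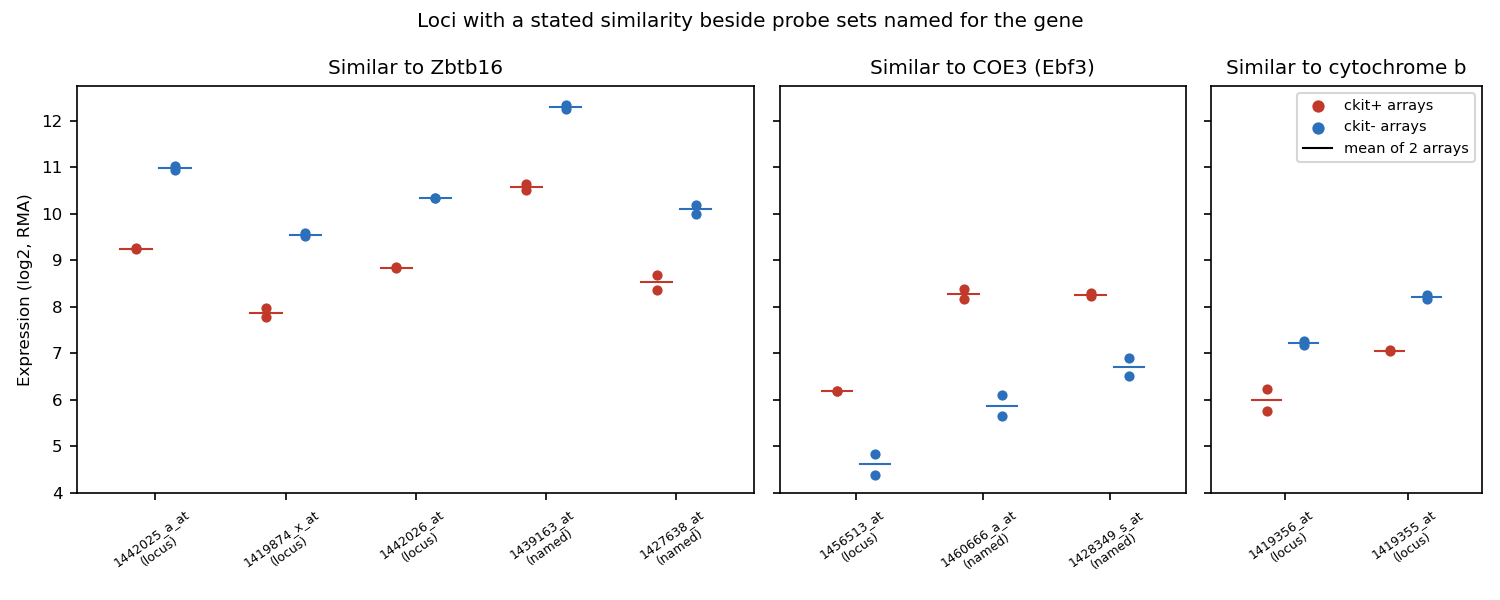
Expression (log2) of loci with a stated similarity to Zbtb16, COE3 (Ebf3) and cytochrome b, beside the probe sets that the table names for Zbtb16 and Ebf3, with ckit+ arrays in red on the left and ckit- arrays in blue on the right of each pair. Points are arrays and lines are means of 2 arrays, and the Zbtb16 probe sets are lower in ckit+ cells in all 5 cases, by 1.49 to 1.73 on the log2 scale.

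The remaining loci with a stated similarity are described next. BB026630 (1437687_x_at), called strongly similar to the rat FK506 binding protein 9, a prolyl isomerase of the endoplasmic reticulum, had 10.61 and 10.61 in ckit+ arrays against 9.52 and 9.27 in ckit- arrays. It was one of the 3 brightest loci and 2.31-fold higher in ckit+ cells. BB275228 (1455586_at), moderately similar to ring finger protein 168, a ubiquitin ligase of the DNA damage response (Rnf168), had 7.65 and 7.77 in ckit+ arrays against 6.55 and 6.77 in ckit- arrays. BB181225 (1441071_at), called strongly similar to a predicted potassium channel of the KQT-like subfamily, had 6.17 and 6.47 in ckit+ arrays against 5.23 and 5.37 in ckit- arrays. These 3 were 2.03-fold to 2.31-fold higher in ckit+ cells. BI134314 (1442831_at), weakly similar to a predicted rat protein, had 5.60 and 5.50 in ckit+ arrays against 6.55 and 6.52 in ckit- arrays, 1.97-fold lower in ckit+ cells.

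That locus and BB484128 (1436002_at) were the 2 of the 59 under 2-fold in these values. BB484128 had 8.75 and 8.73 in ckit+ arrays against 7.88 and 7.92 in ckit- arrays, 1.78-fold higher in ckit+ cells, with the smallest difference of the loci (0.84 ± 0.16). Just inside 2-fold stood BB479807 (1436818_a_at), with 8.48 and 8.70 in ckit+ arrays against 9.69 and 9.53 in ckit- arrays, 2.02-fold lower in ckit+ cells. Loci that missed the authors' own selection carry no name in the files used here, so none could be set beside these.

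The mean signal over the 4 arrays, on the log2 scale, ran from 4.48 to 10.76 over the 59 loci. Its median was 6.53, with quartiles of 5.67 and 7.76, against a median of 7.40 and quartiles of 6.30 and 8.45 for the other 314 probe sets of the table and a median of 6.40 for all probe sets. Of the loci 61.0% had a mean level at or below 7, as did 41.4% of the other listed probe sets and 60.1% of all. The median of the loci was thus near that of the whole array and below that of the rest of the table. Part of that rest carried RIKEN cDNA names, 23 probe sets with a median level of 6.68. These are descriptions of probe sets that share the same 4 arrays, without a test.

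**Figure D3:**
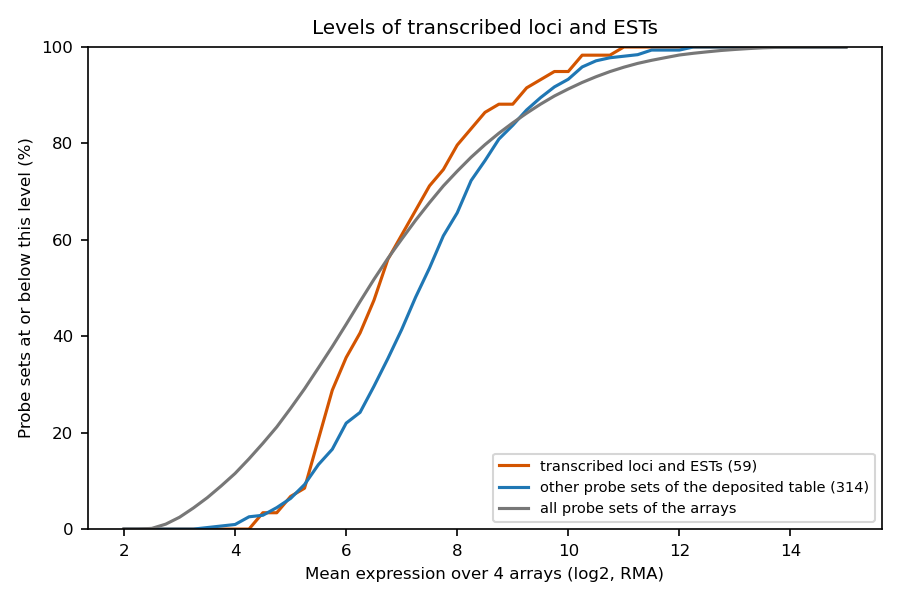
Share of probe sets (%) at or below each mean expression over 4 arrays (log2), for the 59 loci, the other 314 probe sets of the table and all probe sets of the arrays. At a level of 7 the curves stand at 61.0%, 41.4% and 60.1%.

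The brightest locus was BI690175 (1455819_at), with 10.10 and 10.34 in ckit+ arrays against 11.28 and 11.30 in ckit- arrays. It stood above 92.1% of all probe sets in ckit+ and above 96.8% in ckit- cells, and was 2.10-fold lower in ckit+ cells (-1.07 ± 0.17). After it came 1442025_a_at and 1437687_x_at. At the other end, BB033588 (1459362_at) had 3.40 and 3.77 in ckit+ arrays against 5.27 and 5.49 in ckit- arrays. BG094533 (1437116_at) had 5.11 and 5.20 in ckit+ arrays against 3.86 and 3.80 in ckit- arrays. AK016769 (1431965_at) had 4.004 and 4.253 in ckit+ arrays against 5.279 and 5.508 in ckit- arrays. For these 3 the lower population lay among the dimmest values of the array and the higher one remained under the array median.

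In 18 of the 59 loci (30.5%) the lower population's mean was under 5.04, against 16.6% of the other listed probe sets and 28.1% of all probe sets. Of these 18, the low values belonged to ckit- cells in 6 loci and to ckit+ cells in 12. In none of the loci were both populations under it. The higher population's mean exceeded the lowest upper quartile of the arrays (7.99) in 20 of the 59 (33.9%), against 50.6% of the other listed probe sets and 27.6% of all probe sets, and in 14 of the 59 it lay under the mean of the array medians (6.40). In these 18 loci the size of the difference rests on a dim signal.

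**Figure D4:**
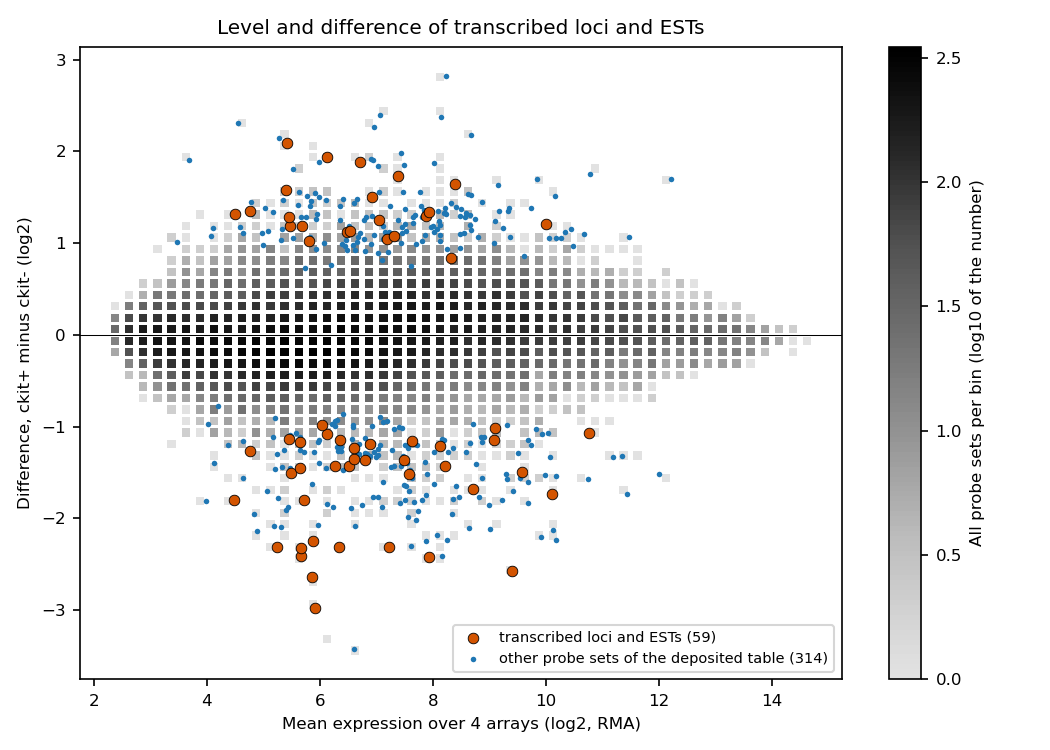
Difference between the populations (log2, ckit+ minus ckit-) against the mean expression over 4 arrays (log2), with the 59 loci in orange, the other 314 probe sets of the table in blue and all probe sets in grey bins. The widest differences of the loci, -2.98 and -2.64, lie at mean levels of 5.91 and 5.87, and the loci of both directions leave the band around 0 empty, the table having been selected for differences.

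Replicate arrays of the loci were close in most cases. The median gap between the 2 arrays of a population was 0.18 in ckit+ and 0.16 in ckit- cells for the loci, against 0.15 and 0.17 for the other listed probe sets and 0.19 and 0.21 over all probe sets. The table was also selected by the authors' test, which takes in the spread between replicates, so these gaps are not independent of the selection. In 11 of the 59 loci a gap exceeded 0.5 in either population. The widest was that of BB469592 (1442846_at), with 4.38 and 5.25 in ckit+ arrays against 6.50 and 6.74 in ckit- arrays, followed by the ckit+ arrays of AU042950 and BF471533. These 3 wide gaps all lay in ckit+ cells, at values between 4.13 and 5.53. The smallest distance between the nearest arrays of the 2 populations was 0.66 for any locus, so no locus had arrays that touched.

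The sources of the loci were mixed, with 11 different prefixes among their accessions. The 59 probe sets read 57 accessions, since AI467657 and BB524597 have 2 probe sets each. The prefix BB, a series of ESTs from the Japanese nucleotide archive, was carried by 26 of the 59 probe sets (25 accessions), or 44.1%, against 52 of the other 314 listed probe sets, or 16.6%. The loci were chosen by names that denote such records, so these shares are not independent of the choice, and they were not tested. AV and BG were carried by 6 each, and AK, a series of cloned cDNAs from the same archive, by 3. By the ending of the probe set's name, 54 were of the plain kind (_at), 2 ended in _a_at, 1 in _s_at and 2 in _x_at. Sequences of the ESTs and of the probes, and their positions in the genome, were not used here, so it was not examined whether several loci belong to 1 transcript or lie beside a known gene.

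Esco2 (1428304_at), an acetyltransferase that establishes cohesion of sister chromatids in S phase, had 9.38 and 9.14 in ckit+ arrays against 8.07 and 7.95 in ckit- arrays. It was 2.37-fold brighter in ckit+ cells (log2 difference 1.25 ± 0.17). As an annotated gene it enters none of the counts of loci above.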

How the data were processed

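RNA was measured on 4 one-colour arrays, 2 per population. The deposited values are log2 expression values made by the authors with RMA, per the submitters' processing notes; its version, the array model and the genome build are not given in the sources used here. A second deposited table, per the file headers a t-test corrected after Benjamini and Hochberg (605 tests, 2-fold and up), supplied only probe set IDs, accessions and names. Its fold and p columns were not used. Limma 3.58.1 in R 4.3.3 (lmFit, eBayes, two-sided, Benjamini-Hochberg) was run without covariates or filter on the 45037 probe sets left after 64 controls, and was tested on simulated data. Alternatives were renewed quantile normalization, median centring, a filter on dim probe sets, an intensity trend, a replicate block, the methods' t-test and leaving out each array. An exact permutation test of 2 against 2 arrays cannot go below p = 0.333. The number of arrays limits the precision. Limma's p-values rest on the spread between 2 pools per population, drawn towards a spread pooled over all probe sets. RMA brings the arrays' distributions close together, so a shift of all transcripts would not be visible. The deposited distributions were not identical. Lower quartiles were 4.95 and 4.93 in ckit+ arrays against 5.01 and 5.04 in ckit- arrays. Upper quartiles were 8.12 and 8.15 in ckit+ arrays against 8.05 and 7.99 in ckit- arrays. Renewed quantile normalization moved the log2 differences of the loci by at most 0.13.

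Loci were taken by name; those described singly are Kit, the 8 widest differences in each direction, the 3 brightest, dimmest, smallest and most variable, and every locus with a stated similarity, and some EST-named loci and Esco2 were added after their values were seen. The members and lists were chosen with earlier results of these data known.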

Additional observations from a re-analysis of the deposited data

How the results depend on the processing

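With an intensity trend limma called 48 of the 59 loci and 419 of all probe sets, and with a replicate block 56 and 554, against 22 and 139 as reported, and each alternative included all 22. Over the 45037 probe sets, the difference between array 1 and array 2 of ckit+ cells correlated with that of ckit- cells at 0.26. Since no label ties a number to a shared litter or day, the block is only an alternative. Over the whole array the methods' t-test called 0 of the loci and 1 probe set (57 loci and 5346 probe sets at an unadjusted p under 0.05). With any 1 array left out, limma called 0 of the loci and 0 probe sets in each case, with 4513 to 6422 probe sets and all 59 loci at an unadjusted p under 0.05; the lone array is then assumed to vary like the other population, and fewer arrays leave fewer degrees of freedom. The other causes were not tested. Renewed quantile normalization, median centring and the filter on dim probe sets, which kept 55 loci, gave 23, 22 and 20 called loci and 133, 142 and 127 called probe sets (of 33464 with the filter). All loci tested kept their sign under these 3 and without any 1 array, where 53 to 55 of the 59 were at least 2-fold apart and the medians ran from 1.22 to 1.35 and from -1.53 to -1.37. With 2 arrays per population, no alternative makes the selected differences independent evidence.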
